A study of Mus musculus with 12 samples.

Results

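The genes described here are 168 protein-coding genes whose counts were low in CD8+ T cells primed with antigen alone (Ag) and higher both in naïve cells (Naive) and in cells primed with antigen and costimulation (Ag+Costim). They were chosen by their measured values. A gene was selected on CPM (counts scaled to a common library total, per 1e6 counts) when its Naive mean and its Ag+Costim mean were each at least 3 times its Ag mean and each at least 10 CPM. Of 22028 annotated protein-coding genes, 170 met these thresholds, and Prpf19 and Lars2 were then left out by name. The rule also bars Hnrnpl and ribosomal, histone and synthetase genes, and no other gene was left out for it. Because the ratios to Ag fixed the list, they are given below as descriptions with no test.

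The libraries came from OT-I CD8+ T cells on a C57BL/6J background, which carry a transgenic T cell receptor for a peptide of ovalbumin. For the Ag group (5 libraries), these cells were transferred into C57BL/6J recipients. By the study's methods these recipients then received antigen with a rat IgG control and no agonist antibody. For the Ag+Costim group (5 libraries), the recipients received the same antigen together with agonist antibodies to OX40 (CD134) and 4-1BB (CD137), receptors of the tumor necrosis factor receptor family. The 2 Naive libraries came from OT-I mice whose cells were never transferred, so transfer, the host and stimulation cannot be told apart in any comparison with Naive. Transferred cells were sorted from spleen and lymph nodes after 4 days by the labels, while the study's methods give a slightly shorter time and describe OT-I donors that also lack Rag1 or Rag2. All 12 libraries were made from full-length cDNA with a low-input kit. The labels do not tie each library to an animal, so p-values measure the spread between these libraries.

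Naïve CD8+ T cells are small, quiescent cells that keep a broad but low transcriptional output. Priming through the T cell receptor makes them grow, build ribosomes, take up amino acids and synthesize lipids and nucleotides, and signals through OX40 and 4-1BB prolong that growth and the survival of the cells. Strong and lasting stimulation also switches off part of the naïve program, such as receptors that hold the cells in lymphoid organs.

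Total counts per library were 42342577 and 43491402 in Naive, 24006053 to 45980125 in Ag and 40028682 to 49294934 in Ag+Costim, and 3 counts correspond to 0.0609 to 0.125 CPM. Ag 4 was the library with the lowest total, and its listed complexity of 31.6% stood above that of the other Ag libraries, the lowest of which had 21.6%. The sequencing sheet lists an input amount of 0 for all 5 Ag libraries, 10 for all 5 Ag+Costim libraries and 8.5 and 10.7 for Naive, with no unit. This entry therefore follows the same order as the genes described here, and it cannot be told apart from the group. Summed T cell markers (8 of 8 genes found) were 16229 and 17162 CPM in Naive, 15166 to 19402 CPM in Ag and 7414 to 9864 CPM in Ag+Costim, and none of the marker genes is a member. Cd4 and Foxp3 together did not exceed 2.76 CPM in any library. Summed erythroid markers (7 of 7 genes) ranged from 588 to 6721 CPM in Ag, with the highest value in Ag 4, from 14.0 to 211 CPM in Ag+Costim and from 169 to 2314 CPM in Naive. Summed B cell markers (8 of 8 genes, mostly Ighm) ranged from 1171 to 1191 CPM in Naive, 1182 to 1753 CPM in Ag and 561 to 1212 CPM in Ag+Costim. Pax5 and Ebf1, which define B cells, were at 0 in both Naive libraries and reached 0.606 and 4.71 CPM in Ag and 0.574 and 2.56 CPM in Ag+Costim. Summed myeloid and dendritic cell markers (10 of 10 genes) did not exceed 176 CPM and summed NK cell markers (4 of 4 genes) 120.1 CPM in any library. Summed proliferation markers (12 of 12 genes) were 320 and 336 CPM in Naive, 1167 to 2217 CPM in Ag and 5125 to 6989 CPM in Ag+Costim. Their part in the values below was not tested. In these bulk libraries, fewer cells that express a gene and less RNA of it per cell cannot be told apart.

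The median member stood at 47.8 CPM in Naive, 10.05 CPM in Ag and 51.9 CPM in Ag+Costim. The median ratio to Ag was 4.20 for Naive and 4.36 for Ag+Costim, and 62 members reached 4-fold, 29 reached 5-fold and 5 reached 10-fold in both ratios. Counts of these genes made up 1.14% and 1.20% of each Naive library, 0.228% to 0.333% of each Ag library and 1.17% to 1.45% of each Ag+Costim library. In 166 members every Ag library lay below every other library, against 21.4% of the 7339 protein-coding genes at 10 CPM or more in Naive and Ag+Costim, a contrast that the choice of the members fixes. The Ag 4 library was the highest of its group in 120 of the 168 members. Without it, the same rule would select 214 genes, 167 of them among the 168.

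**Figure D1:**
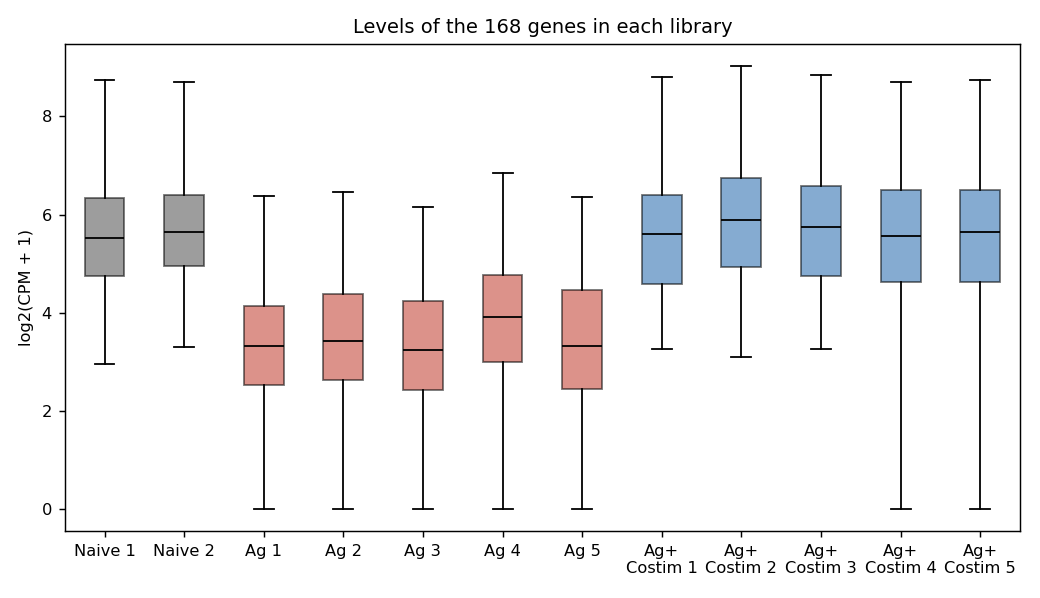
Levels of the 168 genes in each library, as log2(CPM + 1). Boxes span the quartiles with the median as a line, and whiskers run from the lowest to the highest gene, in gray for Naive, red for Ag and blue for Ag+Costim. The medians of the 5 Ag libraries lie below all others, with Ag 4 the highest of them.

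These genes were low in Ag rather than silent. In the Ag group, 86 members still averaged 10 CPM or more, and 1 averaged below 1 CPM. That member is a second annotated entry of Sept2, a cytoskeletal GTPase gene (ENSMUSG00000116048.1, mm10 chr1:93478993-93509733), which lies on the same strand as the main Sept2 entry. It was listed at 0 in all 5 Ag libraries and also in Ag+Costim 4 and Ag+Costim 5, where the main entry stood at 103 and 107 CPM, so the level of either entry alone is uncertain. Both entries together averaged 84.8 CPM in Naive, 25.7 CPM in Ag and 107 CPM in Ag+Costim. Of all members, 26.8% overlapped another annotated gene on the same strand, against 23.999% of the other genes at 10 CPM or more, and 45.2% overlapped one on the opposite strand, against 44.6% of those other genes. The library kit does not mark strand, so reads of overlapping genes cannot be told apart there. Among the genes named below, Prrc2a, Nedd4, Fmnl3, Sbf1, Actn1, Kcnab2, Gm42688, Tbrg4 and Tbc1d22b overlap a gene on the same strand.

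After that entry, Ddit4, an inhibitor of the growth kinase complex mTORC1 (chr10:59949669-59951834, minus strand), had the largest smaller ratio. Ddit4 counts were 40.6 and 42.9 CPM in the Naive libraries, with the Ag libraries at 1.35, 1.28, 1.45, 1.9995 and 1.36 CPM and the Ag+Costim libraries at 21.6, 19.5, 23.2, 43.6 and 23.03 CPM. Its Naive mean was 28.1 times and its Ag+Costim mean 17.6 times the Ag mean. No Ag library came near the other groups, and Ag+Costim 4 was high for its group. Ppp1r37, a regulatory partner of protein phosphatase 1, averaged 35.3 ± 2.42 CPM (SD, n = 2) in Naive, 1.21 ± 0.326 CPM (n = 5) in Ag and 17.8 ± 2.08 CPM (n = 5) in Ag+Costim. All 5 of its Ag+Costim values lay below both Naive values. Them6, a member of the thioesterase superfamily, averaged 18.6 ± 0.567 CPM (SD, n = 2) in Naive, 1.32 ± 0.445 CPM (n = 5) in Ag and 17.9 ± 4.36 CPM (n = 5) in Ag+Costim.

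For Lfng the values were 427 and 415 CPM in Naive, 16.5, 17, 21.3, 24.2 and 27.1 CPM in Ag and 169.8, 190.1, 226, 303 and 249.7 CPM in Ag+Costim. Lfng (chr5:140607320-140615545, plus strand) encodes lunatic fringe, a glycosyltransferase that modifies Notch receptors, and each group formed its own range with Naive at the top. Its Naive mean was 19.9 times and its Ag+Costim mean 10.7 times the Ag mean. Nedd4 stood at 45.2 and 44.3 CPM in the Naive libraries, at 4.85, 4.98, 5.25, 8.37 and 5.42 CPM in the Ag libraries and at 72.4, 80.4, 63.9, 50.8 and 50.4 CPM in the Ag+Costim libraries. Nedd4 (chr9:72662346-72749852, plus strand) encodes a ubiquitin ligase of the HECT class, and here the Ag+Costim libraries lay highest. Its Naive mean was 7.75 times and its Ag+Costim mean 11.01 times the Ag mean. Fmnl3 counts were 37.6 and 46.9 CPM in the Naive libraries, with the Ag libraries at 4.50, 5.11, 5.25, 3.50 and 3.59 CPM and the Ag+Costim libraries at 33.4, 36.9, 34.3, 32.1 and 33.1 CPM. Fmnl3 (chr15:99317225-99370482, minus strand) encodes a formin that elongates actin filaments, and its Ag values lay well under those of both other groups. The remaining genes of the 12 with the largest smaller ratio were Prrc2a and Rbm38, which encode RNA-binding proteins, the kinase gene Mink1, Sympk, which encodes a scaffold of the mRNA 3′ end processing complex, and Epn1, which encodes an endocytic adaptor. Their Ag means lay between 3.25 CPM (Prrc2a) and 10.96 CPM (Rbm38), and their Naive means between 28.1 CPM (Mink1) and 85.8 CPM (Rbm38).

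**Figure D2:**
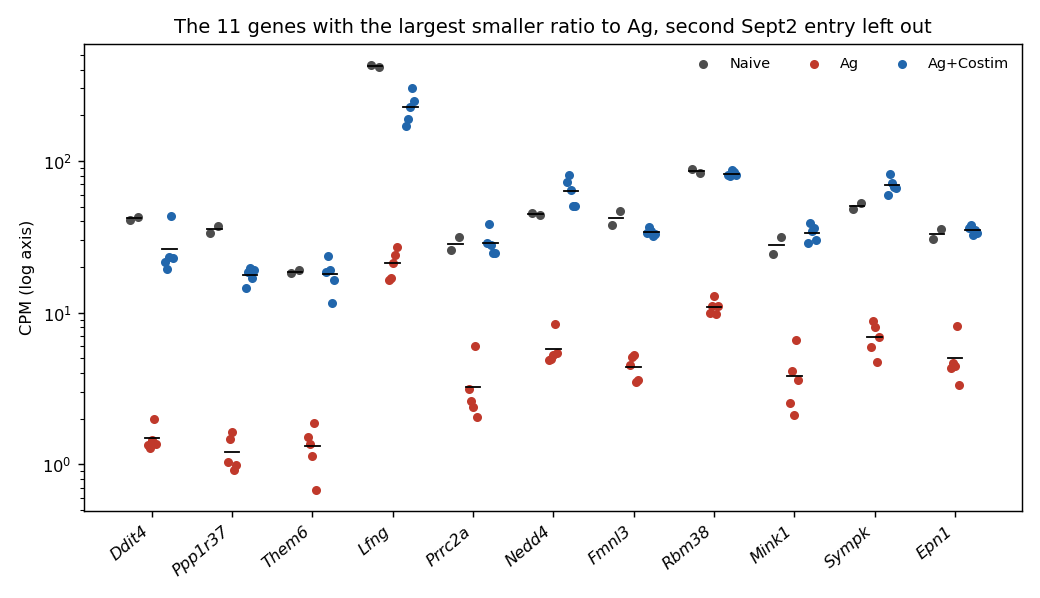
CPM (log axis) of the 11 single genes with the largest smaller ratio, with the second Sept2 entry left out. Each point is a library, in gray for Naive, red for Ag and blue for Ag+Costim, and black lines are group means. For each gene all red points lie below all gray and blue points.

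The DNA just before the transcription start of 4 of these genes is shown as a description. They were low together in Ag because the rule chose them so, and shared control was not tested. The sequences come from RefSeq (GRCm38.p6) and stop before the first annotated exon. They run 5′ to 3′ on the strand of the gene, with matches to any of 11 short motifs in capitals. The motifs were searched on both strands and are short runs known to be bound by families of factors. The GC box of Sp and Krüppel-like factors was read as GGGCGG and the site of ETS factors as CCGGAAG. The E-box of Myc and related factors was read as CACGTG. The site of CREB was read as TGACGTCA and that of AP-1 as TGANTCA. Forkhead factors were given by GTAAACA, TCF and LEF factors by CTTTGAA and Runx factors by TGTGGT. The CCAAT box of NF-Y was read by those letters, the TATA box as TATAAA and the site of YY1 as AAGATGGCG.
Ddit4: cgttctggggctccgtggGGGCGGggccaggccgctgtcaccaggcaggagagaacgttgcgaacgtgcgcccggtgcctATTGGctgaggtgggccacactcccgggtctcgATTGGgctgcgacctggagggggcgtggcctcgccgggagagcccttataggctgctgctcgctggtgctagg
Lfng: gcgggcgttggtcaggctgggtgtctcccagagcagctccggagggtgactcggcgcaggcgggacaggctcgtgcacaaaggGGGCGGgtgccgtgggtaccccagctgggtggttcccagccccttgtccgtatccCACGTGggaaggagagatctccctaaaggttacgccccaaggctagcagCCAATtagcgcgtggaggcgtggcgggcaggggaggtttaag
Nedd4: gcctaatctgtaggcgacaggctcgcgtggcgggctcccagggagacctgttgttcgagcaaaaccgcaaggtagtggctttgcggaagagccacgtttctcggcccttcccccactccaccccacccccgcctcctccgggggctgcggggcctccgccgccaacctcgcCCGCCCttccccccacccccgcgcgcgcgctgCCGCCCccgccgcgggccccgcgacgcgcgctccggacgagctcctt
Fmnl3: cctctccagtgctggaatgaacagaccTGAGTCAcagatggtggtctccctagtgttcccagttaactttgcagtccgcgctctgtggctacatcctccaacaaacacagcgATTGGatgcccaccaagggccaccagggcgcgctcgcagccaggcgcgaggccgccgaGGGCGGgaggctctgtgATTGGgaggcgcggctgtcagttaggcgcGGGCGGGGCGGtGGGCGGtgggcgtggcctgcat
The Ddit4 stretch is chr10:59951835-59952020, the Lfng stretch chr5:140607091-140607319, the Nedd4 stretch chr9:72662081-72662330 and the Fmnl3 stretch chr15:99370483-99370732. All 4 hold the GC box on 1 strand or the other, with 4 matches in Fmnl3, of which 2 overlap. The CCAAT box was found in the Ddit4, Lfng and Fmnl3 stretches, the E-box in that of Lfng and the AP-1 site in that of Fmnl3. A RefSeq window of 300 bases around the start was found for 141 of the 168 members and for 16364 protein-coding genes in all. The GC box was in 70.9% of the member windows, against 69.2% of those of the other genes at 10 CPM or more and 48.8% of all. The E-box was in 16.3% of the member windows (23 of 141), against 11.1% of the other genes at that level and 8.14% of all. For the CCAAT box the shares were 32.6%, 39.2% and 38.6%, and for the ETS site 23.4%, 24.8% and 12.3%. The Runx site was in 11.3%, 12.4% and 14.9%, the AP-1 site in 7.09%, 4.08% and 7.05% and the TATA box in 7.09%, 6.13% and 12.95%. The remaining sites were each in at most 3.55% of the member windows. A match is a run of letters and not a known site. Member windows had a median GC content of 62.7%, against 61.5% for the other genes at that level.

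The 168 genes were then sorted by the role of their products, after their values had been seen. Ribosome biogenesis and RNA polymerase I held 13 members (Npm3, Rrp12, Heatr1, Nol6, Pelp1, Mybbp1a, Urb1, Urb2, Pwp2, Polr1b, Nle1, Rbm19 and Utp20), most of which act in the nucleolus to transcribe, cleave or fold ribosomal RNA. Their median ratio to Ag was 4.35 for Naive and 4.39 for Ag+Costim. For Mybbp1a the values were 204 and 220.4 CPM in Naive, 48.1, 52.4, 44.4, 54.5 and 47.9 CPM in Ag and 274, 356, 274, 155 and 207 CPM in Ag+Costim. Mybbp1a encodes a nucleolar protein, and the Ag+Costim libraries spread widely, with Ag+Costim 2 high and Ag+Costim 4 low. Polr1b, the second largest subunit of RNA polymerase I, belongs here too. Npm3 stood at 15.8 and 16.1 CPM in the Naive libraries, at 2.17, 0.852, 2.56, 4.46 and 2.34 CPM in the Ag libraries and at 39.7, 34.9, 55.8, 34.1 and 47.4 CPM in the Ag+Costim libraries. Npm3 encodes a histone chaperone of the nucleophosmin family and stood highest in Ag+Costim.

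RNA processing and decay held 17 members, among them Snrnp200 and Snrnp70 of the spliceosome, Sf3a2 of the U2 particle, Cpsf1 and Sympk of 3′ end cleavage, and the decay factors Upf1 and Patl1. Their median ratio to Ag was 3.77 for Naive and 4.36 for Ag+Costim. Cpsf1 counts were 192 and 219 CPM in the Naive libraries, with the Ag libraries at 50.6, 63.1, 42.2, 57.4 and 54.9 CPM and the Ag+Costim libraries at 167, 216, 194, 150.3 and 185 CPM. The Naive and Ag+Costim values of Cpsf1 overlapped, and all 5 Ag values lay below them. Nuclear transport held 7 members, the nuclear pore genes Nup188 and Nup98, the karyopherin genes Xpo7, Tnpo2, Ipo4 and Kpna4, and Mcm3ap, whose product helps to export mRNA. Transcription and chromatin held 18 members, including Prmt1, an arginine methyltransferase gene, Brd2, whose product binds acetylated histones, Cbx2 of Polycomb, the deacetylase gene Hdac5, the acetyltransferase gene Kat2a, Smarcc2 of the BAF remodeler and Max, the dimerization partner of Myc. For Brd2 the values were 204 and 218 CPM in Naive, 53.2, 51.8, 48.6, 57.4 and 53.99 CPM in Ag and 175, 208, 192, 186 and 177 CPM in Ag+Costim. For Brd2, 1 Ag+Costim library reached into the Naive range and the others lay just below it. Translation and protein quality control held 7, among them Eif4g1, the scaffold of the cap-binding complex, and Hyou1, a chaperone of the endoplasmic reticulum. Ubiquitin ligase subunits numbered 8, among them Ddb1 and Dcaf1 of cullin 4 ligases and Anapc2 of the anaphase-promoting complex. Ddb1 stood at 229 and 238 CPM in the Naive libraries, at 63.8, 64.7, 59.2, 76.02 and 62.7 CPM in the Ag libraries and at 443, 519, 458, 396 and 427 CPM in the Ag+Costim libraries. Ddb1 values in Ag+Costim lay above all Naive values.

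Metabolism and transport held 14 members, with a median ratio to Ag of 4.13 for Naive and 6.09 for Ag+Costim. They include Fasn, the fatty acid synthase, Cad, the enzyme of the first steps of pyrimidine synthesis, Pfas of purine synthesis, Slc7a5, the catalytic light subunit of the LAT1 amino acid transporter, and Scap of sterol sensing. Slc7a5 counts were 41.1 and 34.1 CPM in the Naive libraries, with the Ag libraries at 10.1, 8.73, 7.20, 14.2 and 5.46 CPM and the Ag+Costim libraries at 134, 179.6, 156, 65.2 and 110.2 CPM. Every Ag+Costim library lay above the Naive ones, and Ag+Costim 4 was the lowest of its group. For Cad the values were 50.4 and 51.8 CPM in Naive, 13.2, 8.88, 9.72, 17.3 and 6.85 CPM in Ag and 161, 239.6, 149, 88.6 and 119.8 CPM in Ag+Costim. The same 2 features held for Cad. Fasn stood at 99.5 and 80.5 CPM in the Naive libraries, at 16.4, 17.6, 12.4, 25.5 and 13.5 CPM in the Ag libraries and at 214, 338, 188, 122 and 144 CPM in the Ag+Costim libraries. Fasn was also highest in Ag+Costim 2 and lowest in Ag+Costim 4. Mitochondrial gene expression held 4 members, among them Polrmt, the mitochondrial RNA polymerase, and Lrpprc, which stabilizes mitochondrial mRNA.

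The cytoskeleton held 18 members, among them the formin genes Fmnl1 and Fmnl3, Was, whose product promotes actin nucleation, Hcls1, Cap1, the focal adhesion gene Pxn, the kinase gene Stk10 and Actn1, which encodes an actin crosslinker. Fmnl1 counts were 269 and 282 CPM in the Naive libraries, with the Ag libraries at 68.1, 73.6, 61.1, 112 and 63.7 CPM and the Ag+Costim libraries at 362, 383, 368, 417 and 374 CPM. The Ag+Costim libraries of Fmnl1 lay above the Naive ones. For Stk10 the values were 358 and 376 CPM in Naive, 48.7, 54.6, 45.2, 66.4 and 47.99 CPM in Ag and 252, 310.0, 284, 327 and 271 CPM in Ag+Costim. In Stk10 the Ag+Costim libraries lay below the Naive ones. Actn1 stood at 190.0 and 207 CPM in the Naive libraries, at 13.1, 11.7, 19.6, 26.7 and 18.5 CPM in the Ag libraries and at 47.4, 51.9, 77.1, 111 and 82.02 CPM in the Ag+Costim libraries. Actn1, also on the list of naïve T cell genes, kept the 3 groups apart with Naive at the top. Surface receptors held 7 members, which were Cxcr4 and Ccr2 for chemokines, S1pr4 for sphingosine-1-phosphate, Gpr132, Itgb3, Il1rl2 and Lilr4b. S1pr4 counts were 223 and 224 CPM in the Naive libraries, with the Ag libraries at 40.9, 45.7, 37.3, 54.7 and 41.9 CPM and the Ag+Costim libraries at 121, 125, 131, 159 and 147 CPM. For Ccr2 the values were 30.4 and 32.8 CPM in Naive, 8.79, 6.80, 5.65, 25.5 and 4.43 CPM in Ag and 74.3, 92, 80.2, 83.2 and 111 CPM in Ag+Costim. S1pr4 was highest in Naive and Ccr2 in Ag+Costim, and Ag 4 had the highest Ccr2 value of the Ag group. Cxcr4 stood at 23.3 and 29.7 CPM in the Naive libraries, at 5.50, 4.20, 3.48, 5.71 and 4.01 CPM in the Ag libraries and at 18.3, 18.6, 14.6, 12.9 and 17.04 CPM in the Ag+Costim libraries. Itgb3 counts were 57.7 and 63.8 CPM in the Naive libraries, with the Ag libraries at 7.37, 7.20, 7.18, 8.91 and 6.17 CPM and the Ag+Costim libraries at 27.1, 50.5, 25.6, 13.2 and 12.5 CPM. In both genes the Naive values lay above all Ag+Costim values.

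Signalling held 15 members, with a median ratio to Ag of 5.41 for Naive and 3.73 for Ag+Costim. Besides Ddit4, Lfng and Mink1 they include Tsc2, another inhibitor of mTORC1, Pim1, a serine kinase gene induced by cytokines, Tgfb1 and Smad3 of the transforming growth factor pathway, Dgkq, which encodes a diacylglycerol kinase, and Themis2. For Pim1 the values were 46.4 and 43.1 CPM in Naive, 3.94, 3.61, 3.39, 8.16 and 3.61 CPM in Ag and 14.7, 20.96, 14.9, 12.7 and 16.01 CPM in Ag+Costim. Tgfb1 stood at 60.8 and 60.3 CPM in the Naive libraries, at 11.2, 11.98, 15.3, 20.2 and 10.2 CPM in the Ag libraries and at 109, 122, 105, 82.7 and 91.9 CPM in the Ag+Costim libraries. Pim1 was highest in Naive and Tgfb1 in Ag+Costim, each with no overlap. DNA repair held 5 members (Ercc2, Ung, Blm, Rad23b and Chtf8), vesicle and membrane traffic 7, and antiviral defense 2 (Oas3 and Znfx1). Oas3 counts were 30.1 and 35.5 CPM in the Naive libraries, with the Ag libraries at 7.46, 7.83, 8.96, 16.7 and 7.90 CPM and the Ag+Costim libraries at 64.7, 89.2, 90.2, 97.7 and 59.6 CPM. Oas3 encodes an oligoadenylate synthetase induced by interferon, and its Ag+Costim values lay above all others. The 26 remaining members were not placed, among them Tmbim6, an inhibitor of cell death in the endoplasmic reticulum, and Kcnab2, a potassium channel subunit. For Tmbim6 the values were 309.9 and 277 CPM in Naive, 81.8, 87.1, 70.6, 114 and 81.3 CPM in Ag and 274, 289, 327, 366 and 302 CPM in Ag+Costim. Kcnab2 stood at 194 and 186 CPM in the Naive libraries, at 32.01, 34.97, 32.8, 52.7 and 43.7 CPM in the Ag libraries and at 345, 406, 388, 379 and 398 CPM in the Ag+Costim libraries. The Naive and Ag+Costim values of Tmbim6 overlapped, whereas those of Kcnab2 were higher in every Ag+Costim library. Sbf1, in membrane traffic, completes the 12 members with the most counts in Naive, and its Ag 4 value of 52.3 CPM was the highest of its group.

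The comparison of Ag+Costim with Naive asks how far these genes returned to the level of naïve cells. It uses the same libraries as the choice of the genes. That choice did not compare these groups directly, but it required both means to be at least 3 times the Ag mean. It thus left out genes where either mean fell near Ag, whereas the protein-coding genes set beside the members met only the minimum of 10 CPM. The member shares below are therefore partly shaped by the choice. In edgeR's quasi-likelihood test on all 12 libraries, 60 of the 168 members were higher in Ag+Costim than in Naive, 21 were lower and 87 passed in neither direction. Over all 18817 genes tested, 26.9% were higher and 25.4% lower, and over the protein-coding genes at 10 CPM or more in both groups 35.8% were higher and 24.5% lower. The member shares were 35.7% higher, near the share of those protein-coding genes, and 12.5% lower. Over the members the median log2 fold change was 0.29, over those protein-coding genes 0.13 and over all genes tested -0.02. With upper-quartile scaling, which moved the median of all genes to -0.18, 40 members were higher and 23 lower, so the share of higher among called members went from 74.1% to 63.5%. With limma on log2(FPKM + 1) 37 were higher and 31 lower (54.4% higher). Relative to plain CPM, the TMM scaling factors of the edgeR fit add 0.22 to each log2 fold change. Adjusted p-values are by Benjamini and Hochberg over all genes tested. As ratios of mean CPM, 106 members lay within 1.5-fold of Naive, 36 lay at 1.5-fold or more and 26 at 1.5-fold or more below. With only 2 Naive libraries, the calls depended on both: without Naive 1, 32 members were higher, and without Naive 2, 33 were higher and 10 lower.

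**Figure D3:**
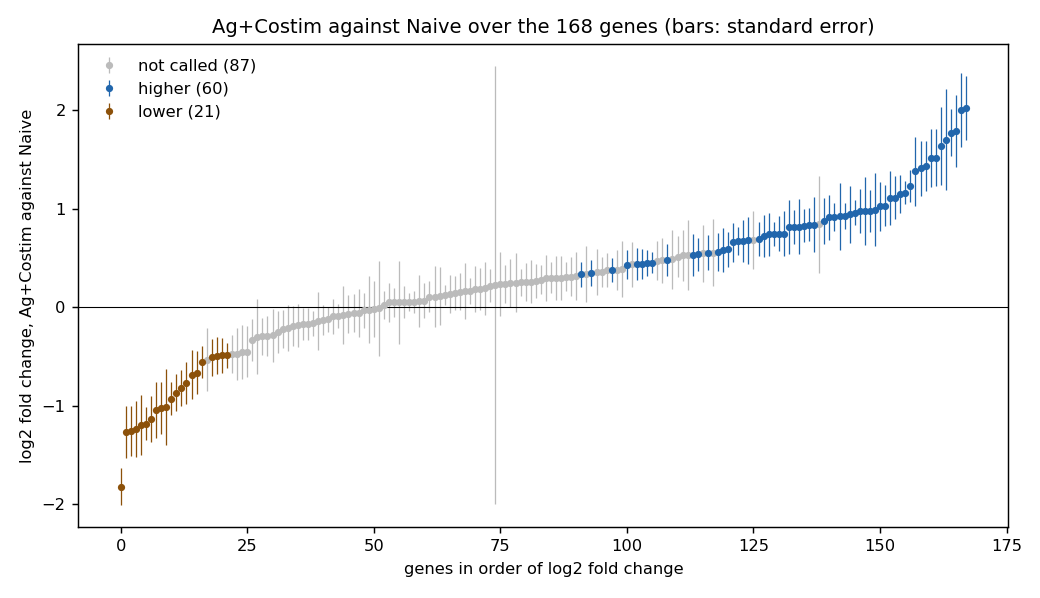
Log2 fold change of Ag+Costim against Naive for the 168 genes in order of size, with bars for the standard error of the edgeR fit. Blue genes were called higher (60), brown genes lower (21) and gray genes were not called (87). Most points lie between -1 and 1, and the second Sept2 entry has the longest bar.

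Of the called members, 18 of the 168 were higher by 2-fold or more and 10 lower by 2-fold or more. At that size 13.4% of the protein-coding genes at 10 CPM or more in both groups were called higher and 8.34% lower, and of all genes tested 16% and 16.7%. The largest values on the higher side (log2 fold change ± standard error, with the edgeR adjusted p) were those of Cercam (2.03 ± 0.33, adjusted p = 0.00017), Slc7a5 (2.0005 ± 0.38, adjusted p = 0.000584), Cad (1.79 ± 0.37, adjusted p = 0.00115), Blm (1.78 ± 0.24, adjusted p = 3.54e-05) and Ccr2 (1.70 ± 0.51, adjusted p = 0.0132). Blm encodes a helicase of recombination repair, and Cad and Slc7a5 supply pyrimidines and amino acids. Blm counts were 16.9 and 16.6 CPM in the Naive libraries, with the Ag libraries at 6.89, 4.46, 3.92, 5.62 and 3.54 CPM and the Ag+Costim libraries at 50.8, 60.01, 48.8, 38.5 and 48.2 CPM. For Cercam the values were 11.5 and 10.4 CPM in Naive, 2.81, 2.20, 2.41, 5.17 and 1.99 CPM in Ag and 26.5, 37.2, 39.1, 36.9 and 51.4 CPM in Ag+Costim. Both genes kept the groups apart. On the lower side were Ttyh3 (-1.82 ± 0.19, adjusted p = 3.37e-06), Pim1 (-1.27 ± 0.26, adjusted p = 0.00121), BC037034 (-1.26 ± 0.25, adjusted p = 0.00102), Gm42688 (-1.24 ± 0.29, adjusted p = 0.0027) and Actn1 (-1.20 ± 0.31, adjusted p = 0.00498). Ttyh3 stood at 41.04 and 42.3 CPM in the Naive libraries, at 2.98, 2.54, 2.45, 4.17 and 2.44 CPM in the Ag libraries and at 8.55, 12.1, 8.66, 11.2 and 9.89 CPM in the Ag+Costim libraries. Ttyh3 encodes a membrane protein of the tweety family, and its Ag+Costim mean of 10.1 CPM was just above the minimum of the selection. Gm42688 shares its strand with 2 overlapping genes, so its counts are uncertain.

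The counts by role stand beside 35.8% higher and 24.5% lower among the protein-coding genes at 10 CPM or more, and several roles lay near the former share, such as metabolism and transport and the cytoskeleton. No role was tested against it. Of 13 genes, 4 ribosome biogenesis members were higher in Ag+Costim than in Naive, among them Npm3 (1.64 ± 0.40, adjusted p = 0.00367) and Urb2 (1.44 ± 0.25, adjusted p = 0.000365), 1 was lower, Nle1 (-0.87 ± 0.18, adjusted p = 0.00149), and 8 passed in neither direction. In RNA processing 8 of 17 were higher, among them Upf1, Snrnp200 and Sympk (0.67 ± 0.21, adjusted p = 0.0174), and 1 was lower, Nufip2. In nuclear transport 3 of 7 were higher (Nup188, Xpo7 and Nup98) and the other 4 passed in neither direction, with Nup188 at 1.15 ± 0.20, adjusted p = 0.000264. In transcription and chromatin 6 of 18 were higher and 2 lower, the latter Hdac5 (-0.93 ± 0.17, adjusted p = 0.000455) and Zfp687. Metabolism and transport had 5 of 14 higher, including Fasn (1.38 ± 0.35, adjusted p = 0.00463) and Pfas, and 9 that passed in neither direction. Cluh, Tbrg4, Polrmt and Lrpprc, the mitochondrial members, passed in neither direction. In DNA repair Chtf8, Ung, Rad23b and Blm were higher. Among ubiquitin ligase subunits Ddb1 (1.16 ± 0.12, adjusted p = 2.62e-06), Anapc2 and Nedd4 (0.73 ± 0.21, adjusted p = 0.0114) were higher and Rnf44 was lower. In the cytoskeleton 7 of 18 were higher, including Hcls1 (0.92 ± 0.14, adjusted p = 0.000109) and Fmnl1 (0.69 ± 0.17, adjusted p = 0.00417), and 2 lower, Actn1 and Ripor1. Among surface receptors Ccr2 was higher and S1pr4 (-0.49 ± 0.13, adjusted p = 0.00557), Gpr132 (-0.69 ± 0.25, adjusted p = 0.034) and Itgb3 (-1.01 ± 0.39, adjusted p = 0.0417) were lower, while Cxcr4, Il1rl2 and Lilr4b passed in neither direction. In signalling 3 of 15 were higher, Tgfb1 (0.98 ± 0.22, adjusted p = 0.00241), Smad3 and Ppme1, and 6 lower, Pim1, Dgkq, Themis2, Prag1, Lfng (-0.66 ± 0.22, adjusted p = 0.0197) and Stk24. Oas3 was higher (1.52 ± 0.29, adjusted p = 0.000745). Itgb3 lost its call in 12 of 22 alternatives, and Lfng, Nedd4, Sympk and Ccr2 lost theirs without either Naive library. Ddit4 passed in neither direction (-0.45 ± 0.26, adjusted p = 0.155), nor did Stk10 (-0.12 ± 0.13, adjusted p = 0.442).

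The other genes of the pathways were read from lists of gene names and prefixes, with the members counted apart. Over all genes tested, 22.5% were lower and 24.2% higher in Ag than in Naive, in Ag+Costim against Ag 26.6% were higher and 26.5% were lower, and 11.2% were both lower in Ag than in Naive and higher in Ag+Costim than in Ag. These comparisons share the Ag libraries. The lists hold only protein-coding genes, whereas the genes tested also include noncoding ones. The 11.2% is therefore not a matched background, the share over protein-coding genes is not given here, and no list was tested against it. In nuclear envelope and nuclear transport, where 7 of 70 tested genes were members (Tprn only by its prefix), 25 of the other 63 were lower in Ag than in Naive and 13 higher, 48 were higher and 8 lower once costimulation was added to Ag, and 23 (36.5%) met both. In nucleolus and ribosome biogenesis, 29 of 105 other genes (27.6%) met both, and in RNA splicing and RNA binding 54 of 206 (26.2%). The former list takes in every gene whose name begins with Wdr, whatever its role, and its member Wdr90 was not placed in ribosome biogenesis above. The list of cytokine receptors and JAK-STAT held 0 members, but it does not name Il1rl2, a member placed among surface receptors above. Of the 45 genes on that list, 13 (28.9%) met both. Among them was Jak1, with 1508 ± 28.1 CPM in Naive (SD, n = 2), 638 ± 97.8 CPM in Ag (n = 5) and 1006 ± 178 CPM in Ag+Costim (n = 5). T cell receptor signalling also held 0 members, and 11 of 43 genes (25.6%) met both. Among T cell transcription factors 8 of 44 (18.2%) met both, including Myc, with 191 ± 17.4, 72.8 ± 14.3 and 131 ± 16.1 CPM in the same order.

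Of the quiescence and naive T cell genes, beside the member Actn1, 28 of 42 were lower in Ag than in Naive and 5 higher, while with costimulation against Ag 2 were higher and 33 lower, and 2 (4.76%) met both. Il7r, the interleukin-7 receptor, stood at 636 ± 69.9 CPM in Naive, 105 ± 14.7 CPM in Ag and 70.0 ± 16.8 CPM in Ag+Costim. In homing and adhesion, with 4 members, 3 of 28 other genes (10.7%) met both, and in interferon-stimulated genes, with Oas3 as the member, 8 of 56 (14.3%). The list of mitochondrial genes held 0 members, because its name prefixes do not take in the mitochondrial members Cluh, Tbrg4, Polrmt and Lrpprc. Of its 245 genes, 14 were lower in Ag than in Naive against 178 higher, with 8 (3.27%) in both. In the other lists the share of non-members that met both was 22.4% for cytoskeleton and motility, 20.7% for chromatin and transcription machinery, 19.4% for kinases and phosphatases, 18.4% for metabolic enzymes and carriers, 15.2% for ubiquitin and proteasome, 14.5% for zinc finger and other DNA-binding proteins, 13.8% for membrane traffic, 10.4% for chaperones and 9.86% for translation factors. Over all lists 543 non-members met both, and 307 did so once the counts were corrected for transcript length.

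The members shared features of their transcripts that the rule did not use. The leading transcript of a member (that with the most counts) had a median length of 4021 bases, against 2835 bases for the other 7171 protein-coding genes at 10 CPM or more in Naive and Ag+Costim. Its coding part was 2574 bases long at the median, against 1296 bases, and it had 14.5 exons against 9, whereas the median 3′ untranslated part was 1005 bases against 998 bases. The GC content of the transcript was 55.4% at the median, against 49.8%. Among genes with transcripts above 3000 bases and GC above 50%, 100 of 1316 (7.60%) were members, against 3 of 1609 (0.186%) with shorter transcripts and lower GC. Across all these genes, members included, the median log2 ratio of Ag to Naive went from 0.57 for transcripts up to 1000 bases to -0.85 for those above 6000 bases, and that of Ag+Costim to Ag from -0.54 to 0.54 at 4000 to 6000 bases and 0.34 above that.

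**Figure D4:**
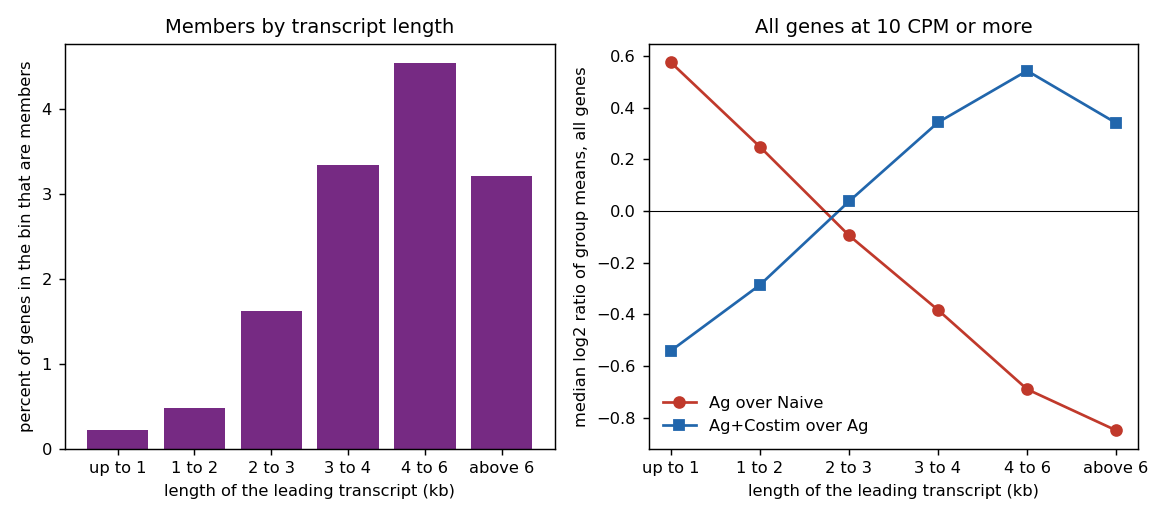
Left, percent of genes at 10 CPM or more in Naive and Ag+Costim that are members, by length of the leading transcript in kilobases. Right, the median log2 ratio of group means over all these genes, in red for Ag over Naive and in blue for Ag+Costim over Ag. Members were 0.222% of the shortest and 4.54% of the genes at 4 to 6 kilobases, and the 2 lines cross between 1 and 3 kilobases.

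The counts were then corrected for this lean. In the edgeR fit before correction the median log2 ratio over the members was -1.91 for Ag over Naive and 2.19 for Ag+Costim over Ag. With a correction for length these were -1.58 and 1.95, with a correction for GC -1.86 and 2.10, and with both -1.51 and 1.79, so that 79.0% of the drop and 81.5% of the rise were left. Because the members were chosen by these same ratios, the part left does not measure the share of length and GC in the pattern. Of the 168 members, 144 were at 3-fold in both fitted ratios before the correction, 68 after that for length, 120 after that for GC and 56 after both, and 141 were still at 2-fold in both after both corrections.

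Transcript counts gave a second view of the same genes, and since they come from the same libraries they are given without a test. The transcript that led in Naive was the leading one in all 3 groups for 129 of 167 members (77.2%), against 86.3% of the other 7171 genes and 82.6% of the 1151 other genes at 5 to 20 CPM in Ag. It led in Naive and Ag+Costim but not in Ag for 17 members (10.2%), against 3.61% and 5.91%. In Fmnl3 the transcript ENSMUST00000081224.13 held 83.7% and 35.6% of the counts in Naive, 4.35%, 3.95%, 0%, 0% and 0% in Ag and 40.5%, 66.7%, 59.4%, 76.8% and 57.1% in Ag+Costim. In Rubcn, an inhibitor of autophagosome maturation, the transcript that held 83.2% and 88.7% in Naive and 82.4% to 86.3% in Ag+Costim was listed at 0 in all 5 Ag libraries. In Tgfbrap1, which encodes a receptor-associated sorting protein, the shares were 20.5% and 64.9% in Naive, at most 3.07% in Ag and 64.1% to 92.6% in Ag+Costim. The median Ag level of these 167 members was 10.1 CPM, and the part of their lower level in Ag in these shares was not tested.

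**Figure D5:**
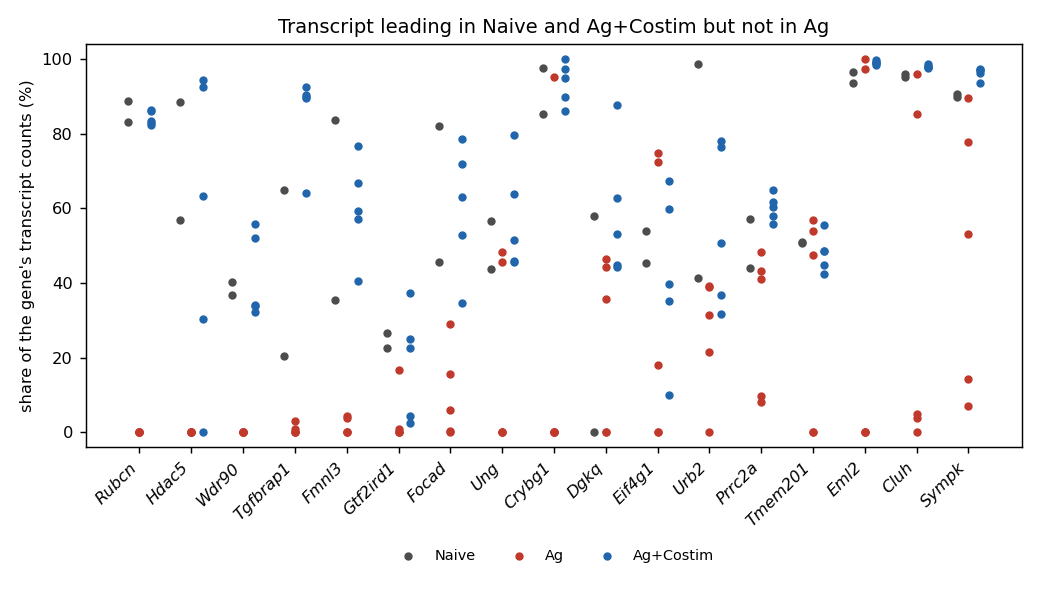
Share (%) of each gene's transcript counts held by the transcript that led in Naive and Ag+Costim but not in Ag, for the 17 members where this was so. Each point is a library, in gray for Naive, red for Ag and blue for Ag+Costim. In Rubcn, Hdac5 and Wdr90 all 5 red points are at 0, while in Cluh and Sympk they spread over most of the range.

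The largest differences of leading share between Naive and Ag+Costim were in Tbrg4 (66.3% in Naive and 15.4% in Ag+Costim), Mink1 (56.4% and 11.4%), Tsc2 (63.4% and 19.8%), Tgfbrap1 (45.1% and 86.1%) and Tbc1d22b (48.5% and 89.2%). In Mink1 the Ag share was 93.4%, outside the span of the other groups. The shares of the 2 Naive libraries lay far apart in Tbrg4, at 46.5% and 87.6%.

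Inclusion levels (Psi, the share of spliced reads that keep a given exon or exon part, called a node) were deposited as 1 value per group for Ag and Ag+Costim, so they have no replicate error. In 154 members with core exon nodes, the median Psi of 2288 such nodes was 0.923 in Ag and 0.987 in Ag+Costim, and Psi was lower in Ag at 98.2% of them. In the other protein-coding genes at 5 to 20 CPM in Ag the values were 0.929 and 0.964, with 85.2% lower in Ag. At tandem transcription starts, Psi differed by over 0.2 at 32 of 127 member nodes (25.2%), against 18.8% in those other genes, and at tandem transcript ends at 43 of 177 (24.3%), against 17.1%. The start of Eif4g1 at node 2 had a Psi of 0.857 in Ag and 0.0304 in Ag+Costim, and that of Ints1 at node 2 had 0.0805 and 0.825. Actn1 differed at its transcript end, with 0.996 in Ag and 0.222 in Ag+Costim at node 24, and so did Nedd4, with 0.8995 and 0.234 at node 13. The reads behind each Psi were not analysed here, and the lower depth of these genes in Ag was not separated from the difference.

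The list depended on where the thresholds were set. Just inside 3-fold lay Pxn with a smaller ratio of 3.01, Agpat1 with 3.02 and Sf3a2 with 3.03, and just outside lay Mier3, Itpr1 and Myo9b, all just under 3. Just inside 10 CPM lay Ttyh3 with 10.1 CPM, Eml2 with 10.4 CPM and Dgkq with 10.6 CPM as the smaller of the means, and just outside lay Acsf2 with 9.95 CPM, Pltp with 9.82 CPM and Dus4l with 9.04 CPM. At 2-fold the rule would select 542 genes and at 4-fold 62. Requiring every Naive and Ag+Costim library to exceed 3 times every Ag library left 36. For comparison, the opposite pattern, at least 3-fold above both other groups in Ag, held for 54 protein-coding genes, with a median transcript length of 1725 bases. High in Naive alone held for 271 genes (median length 4013 bases, near the 4021 of the members) and high in Ag+Costim alone for 269 (3398 bases). Low in Naive alone held for 280 (2193 bases) and low in Ag+Costim alone for 118 (2463 bases). Long transcripts were thus not particular to the members.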

How the data were processed

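RNA was measured in 12 libraries (5 Ag, 5 Ag+Costim, 2 Naive). Per the labels and the study's methods, the authors aligned single-end reads to mm10 with HISAT2 2.1.0, sorted them with SAMtools 1.9 and quantified them with StringTie 2.1.0 against an annotation whose version is not given in the sources used here. The deposited gene and transcript counts are StringTie counts with no normalization, and the deposited FPKM values are per transcript. The authors deposited Psi from Whippet as a fraction, 1 value per group, next to columns that hold their own comparison, which were not used. The deposited sequencing sheet gives read counts, percent aligned and percent complexity.

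CPM was the count over the sum of all entries of a library. Of the 81881 entries, 26345 without an annotation stayed out of tests and held 0.0508% to 0.121% of counts. The test was edgeR 4.0.16 (quasi-likelihood, robust, TMM, filterByExpr) in R 4.3.3 on all 12 libraries with 1 term per group, two-sided, with Benjamini-Hochberg adjustment and a threshold of 0.05. It covered 18817 genes. On simulated counts with 200 genes changed by 1 on the log2 scale, it recovered 37% of them for Ag+Costim against Naive, and 5 unchanged genes were called. The changed genes were drawn at any level among those tested, and far more genes than these were called in the data. The 37% therefore does not give the power for the members. Alternatives used DESeq2 1.42.0 and limma 3.58.1 on log2(FPKM + 1), other scalings, filters and sample sets, the replicate number as a block, and loess corrections for transcript length. Corrections for GC and for length and GC together were chosen after seeing the data. Coordinates and lengths came from GENCODE vM21 on mm10, lengths from the leading transcript.

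The members and gene lists were chosen with earlier results of these data known. Genes named are the 12 members with the largest smaller ratio, the 12 with the highest Naive CPM, the 5 highest and 5 lowest called fold changes against Naive, those next to a threshold, those on T cell and interferon lists and the 5 largest changes of leading transcript share. Members with large Psi differences were named by the difference alone, since the planned filter used the authors' probability column. Further members illustrate their roles and were chosen after their values were seen. Among the libraries of a group, Spearman correlations over genes were 0.972 or more. Counts set the precision, and PCR copies without molecular identifiers are not independent molecules.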

Additional observations from a re-analysis of the deposited data

Results flagged for a closer look

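Ag 4 lay apart from the other Ag libraries in several members, by Dixon's test at 95%. Its value was the highest of the Ag group for Ddit4 (1.999 CPM, the others at most 1.45 CPM), Prrc2a (6.04 CPM, the others at most 3.15 CPM), Nedd4 (8.37 CPM, at most 5.42 CPM) and Epn1 (8.21 CPM, at most 4.69 CPM). The same held for Fmnl1 (112 CPM, at most 73.6 CPM), Sbf1 (52.3 CPM, at most 32.9 CPM), Pim1 (8.16 CPM, at most 3.94 CPM), BC037034 (11.2 CPM, at most 5.56 CPM), Ccr2 (25.5 CPM, at most 8.79 CPM), Cercam (5.17 CPM, at most 2.81 CPM) and Oas3 (16.7 CPM, at most 8.96 CPM). The median log2(CPM + 1) over the 168 members was 3.92 in Ag 4 and 3.24 to 3.42 in the other Ag libraries. Ag 4 had 24006053 counts and a complexity of 31.6%, and its summed erythroid markers reached 6721 CPM, against 588 to 2649 CPM in the other Ag libraries. The myeloid genes S100a8 and S100a9 were at 11.1 and 10.8 CPM in Ag 4 and at most 4.62 and 4.49 CPM in the other Ag libraries. The part of these measures in the values of Ag 4 was not tested.

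Among the Ag+Costim libraries, Ag+Costim 4 stood apart for Ddit4 (43.6 CPM, the others at most 23.2 CPM) and Ag+Costim 2 for Prrc2a (38.6 CPM, at most 28.8 CPM). In all, 14 of 74 groups of values were picked out in this way, where chance gives about 1 in 20, or 3.7. The values of a library are not independent of each other, and 12 of the 14 belong to Ag 4.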

How the results depend on the processing

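Of 1782 values (81 called members under 22 alternatives), 1584 kept their direction and call, 198 lost the call and 0 reversed. The median log2 fold change of the members, 0.29, was 0.13 with upper-quartile scaling and 0.035 with limma on FPKM. Members called higher numbered 60, and 37 with limma. Leaving out 1 library gave 32 to 67 members higher, 10 to 24 lower and a median of 0.21 to 0.35. The lowest counts higher, 32 and 33, came without Naive 1 and Naive 2, and the lowest count lower, 10, without Naive 2. List genes outside the members that were lower in Ag and higher in Ag+Costim numbered 543, and 307 with the length correction, 282 with that for length and GC and 402 to 586 without 1 library. The selection itself gave 168 genes, 542 at 2-fold, 62 at 4-fold, 36 when every library had to pass and 156 to 214 without 1 library. It gave 148 with TMM library sizes (136 of them members) and 80 on FPKM (75 of them members). With no minimum level, 144 of the 167 members with an FPKM value were at 3-fold in both ratios on FPKM. For values against Naive where 1 Naive library was left out, the lone library was assumed to vary like the other groups.

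The labels do not say whether replicate numbers pair the libraries, and the main test did not pair them. Deviations of same-numbered libraries correlated at 0.016 to 0.095 between Ag and Ag+Costim. In the comparisons with Naive they correlated at -0.064 to 0.037. With the replicate number as a block, 51 members were higher and 21 lower, with a median of 0.31, and 12 of the 81 calls were lost. Of 10 Ag and Ag+Costim libraries, each set against the 5 of the other group, 6 correlated best with the library of their own number. Whether the numbers mark pairs therefore stays unsettled. Depth limits mainly the Ag values, and 2 Naive libraries limit every call against Naive.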

Other observations

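Transcripts annotated as retained introns were read for the members as well, as a description with no test. Over 167 members their mean share of a gene's transcript counts was 6.44% in Naive, 7.90% in Ag and 4.98% in Ag+Costim, against 7.72%, 7.02% and 4.66% in the 1151 other protein-coding genes at 5 to 20 CPM in Ag. Single members stood far from these means. In Tnpo2, which encodes a nuclear import receptor, the share was 6.07% in Naive, 86.7% in Ag and 4.18% in Ag+Costim, and in Cluh, which encodes a protein that binds mRNAs of mitochondrial proteins, it was 3.51%, 56.9% and 0.952%. The Ag libraries of Cluh did not agree, with 14.1% and 2.92% in Ag 1 and Ag 2 and 91.2% to 95.1% in the other 3, whereas those of Tnpo2 ranged from 71.1% to 97.7%. In Snrnp70, a spliceosome gene, it was 91.5% in Naive, 31.0% in Ag (11.5% to 42.3% by library) and 61.6% in Ag+Costim. These genes were chosen after their values were seen.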
